A study of Mus musculus musculus x M. m. domesticus and Mus musculus domesticus and Mus musculus with 12 samples.

Results

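*Prm1*, *Tnp1* and *Tnp2*, which encode a protamine and both transition proteins of the mouse, were followed across the testes of fertile and sterile male mice. The genes were chosen by name, as messages of spermatids for the packaging of sperm DNA. Of the 4 Ensembl gene IDs listed for this family, 3 had values among the 7000 genes measured, namely ENSMUSG00000022501_at for *Prm1*, ENSMUSG00000026182_at for *Tnp1* and ENSMUSG00000043050_at for *Tnp2*. The fourth, ENSMUSG00000038015_at for *Prm2*, was not analysed here. All 3 measured genes passed the authors' filter, which kept genes detected in every male.

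RNA from the whole testis of 12 F1 males, 60 days old, had been hybridised to Affymetrix mouse genome arrays, with 3 males in each of 4 genotypes. Genotypes are written with the maternal parent first. *DxD* males were fertile offspring of a cross within *Mus domesticus* (LEWES/EiJ mothers, WSB/EiJ fathers), and *MxM* males were fertile offspring of a cross within *M. musculus* (PWK/PhJ mothers, CZECHII/EiJ fathers). The reciprocal hybrids came from LEWES/EiJ and PWK/PhJ alone: *DxM* males, with the *M. domesticus* mother, were fertile, and *MxD* males, with the *M. musculus* mother, were sterile. Both hybrids thus carried the same pair of autosomal genomes, whereas each within-species cross brought in a strain that the hybrids lack. Testis RNA holds the messages of germ cells and somatic cells together, so fewer spermatids and less message per spermatid cannot be told apart in any of the values below.

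In the haploid cells that follow meiosis, the histones of sperm chromatin are removed and replaced, first by the transition proteins and then by the protamines, small arginine-rich proteins that fold the DNA into a compact and largely silent form. *Prm1* encodes protamine 1, *Tnp1* and *Tnp2* encode the intermediates that precede it on the chromatin, and *Prm1* and *Tnp2* lie close together in a gene cluster that also holds *Prm2*. Their messages are made in round spermatids, stored with proteins that hold back translation, and translated in elongating spermatids. Haploinsufficiency of *Prm1* makes male mice infertile, and the levels of these messages are a common readout of how far spermatids have developed.

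All 3 genes lay at the very top of the arrays. Ranked by their mean over the 12 males, *Tnp1* was number 3, *Prm1* number 4 and *Tnp2* number 5 among 7000 genes. In 11 of the 12 arrays all 3 stood within the brightest 8 genes, and the exception was *Prm1* in replicate 1 of *MxM*, at rank 10. *Tnp1* was above *Tnp2* in 12 arrays, above *Prm1* in 9, and *Prm1* was above *Tnp2* in 10. Brightness depends on the probes of a gene as well as on its message, so this order says little about which message was more abundant.

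How far a gene can move at this end of the array was set by the normalization. The deposited log2 values, when sorted, were identical in all 12 arrays (largest difference 0.0), so that rank 1 always had a log2 value of 13.26, rank 2 of 13.21, rank 3 of 13.18, rank 4 of 13.12 and rank 5 of 13.05. Between ranks 1 and 11 the steps from a rank to the next ran from 0.0235 to 0.0741 on the log2 scale. A gene near the top can therefore rise only by the little room left above it: over the mean of the fertile genotypes this was 0.06 log2 units for *Tnp1*, 0.18 for *Prm1* and 0.25 for *Tnp2*. Downward there was more room, since the array median lay at 8.14 and 53 genes lay within 1 log2 unit of the top value. A level 2-fold below its fertile mean would have put *Tnp1* at rank 61, *Prm1* at rank 78 and *Tnp2* at rank 91, and a level 1.1-fold below it at ranks 5, 9 and 11 respectively. None of the 3 genes was found lower than rank 10 in any male. Whether the probes themselves were saturated was not tested, because the scanner intensities were not analysed here.

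**Figure D1:**
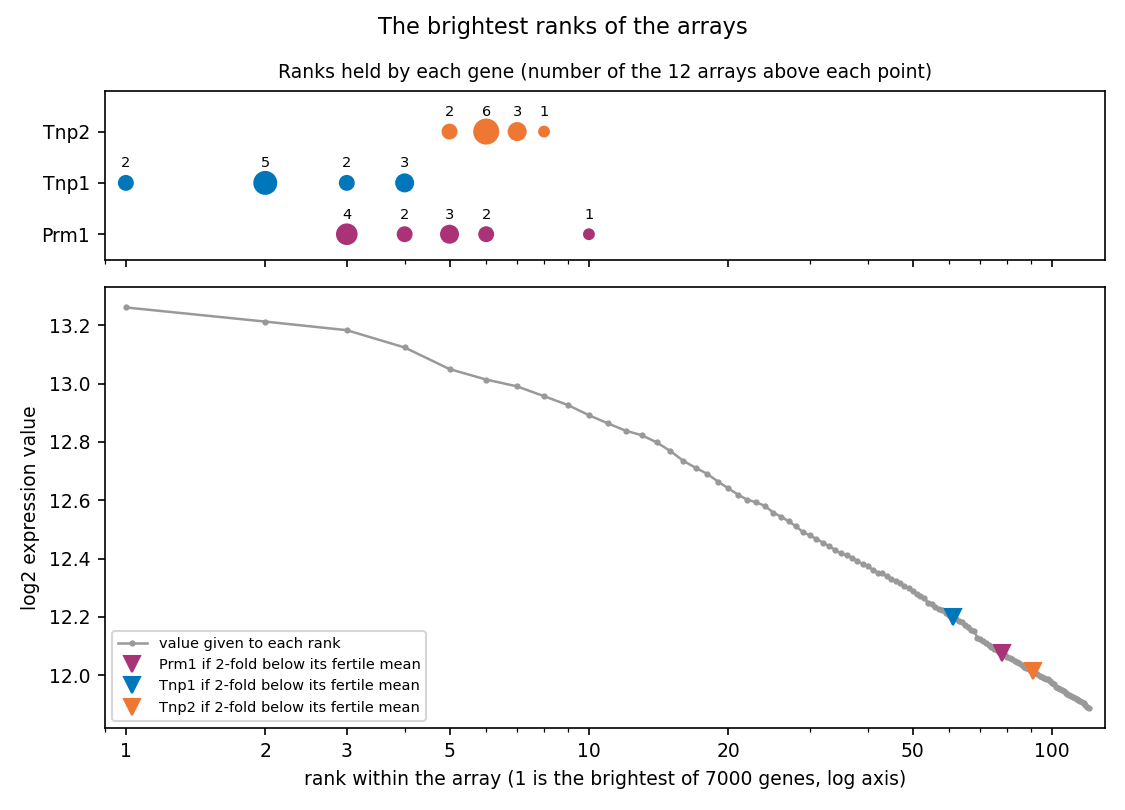
Brightest ranks of the 12 arrays. The upper panel gives the ranks (log axis) that *Prm1*, *Tnp1* and *Tnp2* held, with point area and number standing for the count of arrays; the lower panel gives the log2 value that the normalization assigned to each of the first 120 ranks, and triangles mark where each gene would lie if it were 2-fold below its mean over the fertile genotypes (ranks 61, 78 and 91).

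The *Prm1* values of sterile males fell among those of fertile males, and the widest range was in *MxM*. In *DxD* its log2 expression values were 13.05, 13.18 and 13.18 (replicates 1, 2 and 3), at ranks 5, 3 and 3. In *MxM* they were 12.89, 13.01 and 13.18, at ranks 10, 6 and 3. The fertile *DxM* hybrids had 13.05, 13.12 and 13.01, and the sterile *MxD* hybrids had 13.05, 13.12 and 13.18, at ranks 5, 4 and 3. The *MxD* males thus lay within the range of the fertile males, and 1 of them shared the highest *Prm1* value of the series. Mean *Prm1* was 13.12 ± 0.07 in *MxD*, compared with 13.06 ± 0.06 in *DxM*, 13.14 ± 0.08 in *DxD* and 13.03 ± 0.15 in *MxM* (SD, n = 3 each).

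*Tnp1* was the brightest of the family and held the first place of the array in 2 males, neither of them sterile. Its log2 values were 13.21, 13.12 and 13.12 in *DxD* and 13.21, 13.21 and 13.26 in *MxM*. They were 13.21, 13.26 and 13.18 in *DxM* and 13.21, 13.18 and 13.12 in *MxD*. Every male had *Tnp1* among its 4 brightest genes, and the sterile males covered ranks 2 to 4, as did *DxD*. Mean *Tnp1* was 13.17 ± 0.05 in *MxD*, compared with 13.22 ± 0.04 in *DxM*, 13.15 ± 0.05 in *DxD* and 13.23 ± 0.03 in *MxM* (SD, n = 3 each), so that the sterile hybrids lay between the within-species crosses.

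*Tnp2* varied least. It had log2 values of 13.01, 12.99 and 13.01 in *DxD*, and of 13.01, 13.05 and 12.99 in both *MxM* and *DxM*. The *MxD* males had 13.01, 13.01 and 12.96, of which the last, at rank 8, was the lowest *Tnp2* value measured, although only a rank below the lowest fertile males. Mean *Tnp2* was 12.99 ± 0.03 in *MxD*, compared with 13.02 ± 0.03 in *DxM*, 13.01 ± 0.01 in *DxD* and 13.02 ± 0.03 in *MxM* (SD, n = 3 each).

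**Figure D2:**
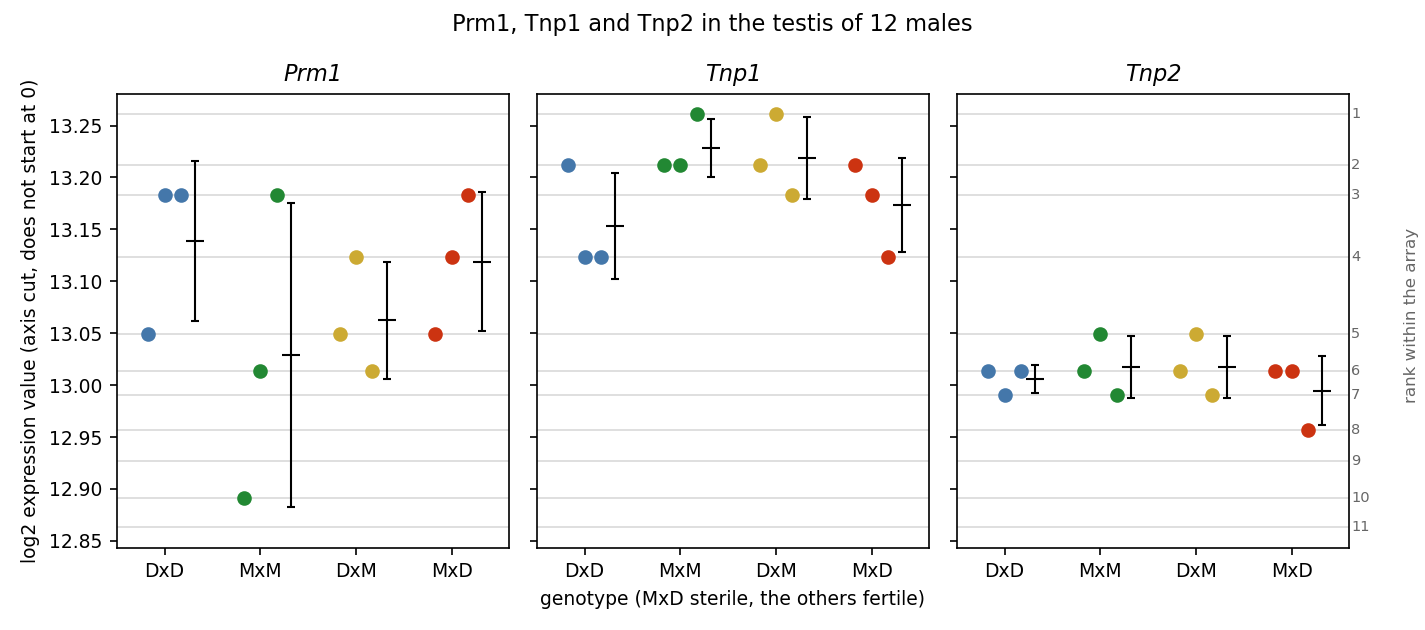
Log2 expression value (vertical axis, cut) of *Prm1*, *Tnp1* and *Tnp2* in each of the 12 males, by genotype. Points are males in replicate order, bars are the mean ± SD of 3 males, and grey lines are the fixed values of ranks 1 to 11. The red points of sterile *MxD*, between ranks 2 and 8, overlap with each fertile genotype in all 3 panels, except that for *Tnp1* they meet *MxM* only at rank 2.

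The comparison of sterile with fertile hybrids asks whether these spermatid messages differed with fertility on the same autosomes. *MxD* minus *DxM* was 0.06 log2 units for *Prm1* (SE 0.08, 95% interval -0.13 to 0.24), -0.05 for *Tnp1* (SE 0.06, -0.18 to 0.09) and -0.02 for *Tnp2* (SE 0.06, -0.15 to 0.10). The limma adjusted p-values, Benjamini-Hochberg over 7000 genes, were 0.773, 0.737 and 0.874. By this rule (adjusted p under 0.05) 0 of the 3 genes were called, where 6.50% of all genes were called, or 17.2% with the replicate number as a block, under which the family also had 0 calls. To be called, a gene with their spread would have needed a difference of 0.31 (*Prm1*), 0.22 (*Tnp1*) or 0.21 (*Tnp2*) log2 units. For *Tnp1* a rise of that size was out of reach, since only 0.06 units were left above its fertile mean, and the same held for *Prm1*, with 0.18 units.

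Against the within-species crosses no difference of the sterile males was called either. *MxD* minus *DxD* was -0.02 for *Prm1* (95% interval -0.20 to 0.16, limma adjusted p = 0.881), 0.02 for *Tnp1* (-0.11 to 0.15, adjusted p = 0.833) and -0.01 for *Tnp2* (-0.13 to 0.11, adjusted p = 0.901). *MxD* minus *MxM*, which holds the X chromosome to one species, was 0.09 for *Prm1* (-0.09 to 0.27, adjusted p = 0.447), -0.06 for *Tnp1* (-0.19 to 0.08, adjusted p = 0.514) and -0.02 for *Tnp2* (-0.15 to 0.10, adjusted p = 0.785). The *Tnp1* difference from *MxM* was larger than the SD of either genotype. No *MxD* male had *Tnp1* above an *MxM* male, and the values met only at 13.21, rank 2. The *Prm1* difference from *MxM* moved to 0.02 when replicate 1 of *MxM* was left out and to 0.17 when replicate 3 was (limma adjusted p = 0.867 and 0.134). Again 0 of 3 genes were called in each contrast, against 31.0% of all genes for *MxD* versus *DxD* and 30.3% for *MxD* versus *MxM*. A rise in *MxD* large enough to be called (0.24 log2 units for *Prm1*, 0.17 for *Tnp1*) was again out of reach below the top value. For these genes only a fall could have been called. No gene of the family had an unadjusted p below 0.05 in the limma fit, and the methods' t-tests called none of them in any contrast.

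These intervals limit how much lower the messages could be in sterile testis on this scale. Over the comparisons of *MxD* with *DxM*, *DxD* and *MxM*, the lower ends corresponded to a level at most 1.09-fold, 1.15-fold and 1.07-fold below the fertile genotype for *Prm1*. They corresponded to 1.13-fold, 1.08-fold and 1.14-fold for *Tnp1*, and to 1.11-fold, 1.097-fold and 1.11-fold for *Tnp2*. They are limits on the normalized values. A compression of the scale at the top of the array would make the change in message larger than the change in value, and its part in these results was not tested. Per the study, histology showed far fewer postmeiotic cells in *MxD* testis than in fertile males, so these limits are not a count of spermatids. How that loss relates to these values was not tested.

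**Figure D3:**
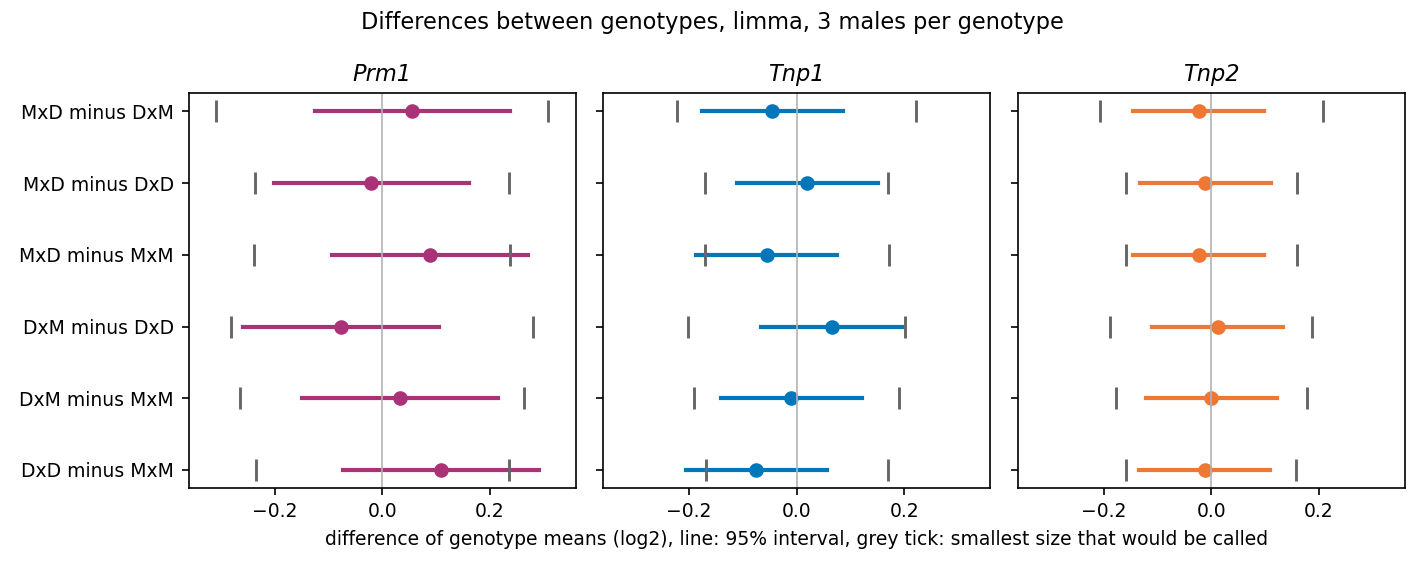
Differences between genotype means (log2, horizontal axis) for the 6 pairs of genotypes. Points are limma estimates from 3 males per genotype, lines are 95% intervals and grey ticks mark the smallest difference that would have been called after adjustment; every interval holds 0, and every point lies between its ticks.

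No difference among the fertile genotypes was called either. *DxM* minus *DxD* was -0.08 for *Prm1*, 0.07 for *Tnp1* and 0.01 for *Tnp2* (limma adjusted p = 0.642, 0.561 and 0.936). In *DxM* minus *MxM* the differences were 0.03 and -0.01 for *Prm1* and *Tnp1* (adjusted p = 0.830 and 0.931), and *Tnp2* held the same 3 ranks in both genotypes. Between the species, *DxD* minus *MxM* was 0.11 for *Prm1* (adjusted p = 0.347), the largest of the 18 pairwise differences of the family, -0.08 for *Tnp1* (0.367) and -0.01 for *Tnp2* (0.890). In each of these contrasts 0 of 3 genes were called, beside 12.1%, 16.9% and 31.9% of all genes. Here too a rise of the first genotype large enough to be called was out of reach for *Prm1* and *Tnp1*. With the replicate block the share was 22.6% for *DxM* against *DxD* and 27.4% for *DxM* against *MxM*. The *Prm1* difference between the species rested in part on replicate 1 of *MxM*, at rank 10: without that male it was 0.04 log2 units (adjusted p = 0.733), and without replicate 3 of *MxM*, at rank 3, it was 0.19 (adjusted p = 0.102). In all 18 pairwise comparisons the ranges of the genotypes overlapped or met. For *Tnp1*, both *DxD* and *MxD* met *MxM* only at 13.21, the fixed value of rank 2, and their other males lay below *MxM*.

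The change from *MxM* to *MxD* was also set against the change from *DxD* to *DxM*, each pair sharing the species of its X chromosome. This interaction was 0.17 for *Prm1* (SE 0.12, limma adjusted p = 0.355), -0.12 for *Tnp1* (SE 0.08, 0.348) and -0.04 for *Tnp2* (0.798). Of the 3 genes 0 were called, beside 21.1% of all genes (34.3% with the replicate block). *Prm1* and *Tnp1* had opposite signs here. When each value was replaced by minus log2 of its rank, a scale that widens the steps at the top, the *Tnp1* interaction became -1.67 with an unadjusted p of 0.0311 and an adjusted p of 0.108 by limma.

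Among themselves the 3 genes showed no correlation across the 12 males that passed a permutation test. The highest was between *Tnp1* and *Tnp2*, with Pearson's r = 0.54 (permutation p = 0.0732, 0.220 after adjustment over 3 pairs) and Spearman's rho = 0.49 (permutation p = 0.114). Without the 2 males farthest from the median of *Tnp1* r was 0.63, and within replicates 2 and 3 (n = 8) it was 0.53. *Prm1* ran against both, with r = -0.37 for each (permutation p = 0.240 with *Tnp1* and 0.233 with *Tnp2*; rho = -0.33 and -0.43, permutation p = 0.287 and 0.160). Without the 2 farthest males these were -0.27 and -0.40, and within replicates 2 and 3 they were -0.31 and -0.45. The genes held neighbouring ranks, with 1 to 6 other genes between the outer members, and no rank was shared within an array, so their values are not independent of each other. The part of this in the correlations was not tested.

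Of the 47 genes that could be compared by name, those whose values ran most like *Prm1* over the 12 males were *4933400A11Rik* (r = 0.58), *Gm364* (0.57) and *BC048507* (0.54). For *Tnp1* they were *Ppp1r15b* (0.65), *Tnp2* (0.54) and *Nup155* (0.39), and for *Tnp2* they were *Tnp1* (0.54), *Sirpa* (0.40) and *Nup155* (0.36). Most of these named genes had been picked by the study on these samples, and none of the likenesses stood out: 847 of 6999 genes had a higher r with *Prm1* than *4933400A11Rik*, 300 had a higher r with *Tnp1* than *Ppp1r15b*, and 217 a higher r with *Tnp2* than *Tnp1*.

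The small spread of *Tnp1* and *Tnp2* was shared by other genes at the top, whereas *Prm1* spread more than the median of the 10 brightest genes. The SD among males of a genotype, pooled over the genotypes, was 0.09 log2 units for *Prm1*, 0.04 for *Tnp1* and 0.03 for *Tnp2*, and the median over the 10 brightest genes was 0.05, compared with 0.14 (median) for genes at ranks 2801 to 7000. The limma fit, which draws the SD of each gene towards that of all genes, used 0.10, 0.07 and 0.07 for the family. From *MxD* to the mean of the fertile genotypes the difference was 0.04 for *Prm1*, -0.03 for *Tnp1* and -0.02 for *Tnp2*. Of all genes, 16.2%, 10.5% and 7.30% had a smaller absolute difference than these. The median absolute difference was 0.03 over the 10 brightest genes, 0.07 over the next 90 and 0.16 at ranks 2801 to 7000. The 10 brightest genes include the family itself, so their medians of SD and of difference are not independent of it.

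Calls were also few among the brightest genes, although the 10 brightest include *Prm1*, *Tnp1* and *Tnp2* themselves. Of the 10 brightest, 0, 1 and 0 were called in *MxD* against *DxM*, *DxD* and *MxM*, and of the 90 genes at ranks 11 to 100 it was 1.1%, 7.80% and 8.90%. At ranks 2801 to 7000 it was 6.60%, 32.9% and 31.8%. The top of the array was not immobile: ENSMUSG00000024033, next below *Tnp2* by mean, held ranks 4 to 19 in the fertile males and was higher in *MxD* than in *DxD* (0.34 log2 units, limma adjusted p = 0.0107, and 0.0602 without the replicate 1 males), where *DxD* had it at ranks 15 to 19. ENSMUSG00000046957, number 19 by mean, held ranks 15 to 27 in fertile and 24 to 55 in sterile males, a mean difference of -0.21 that was called in none of the 3 contrasts. Both were singled out after their values were seen. A total of 16 genes entered the brightest 10 of at least 1 array, and 6 did so in all 12.

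Most annotated postmeiotic genes had a lower mean in sterile testis, and their median difference was nearest to 0 among the brightest. An annotation by the study, from published expression of sorted cells, marks 269 of the genes with values as induced most in postmeiotic cells, over the rows that could be read, which cover chromosomes 1 to 5 and no X-linked gene. It placed *Tnp1*, on chromosome 1, with the meiotic genes, while *Prm1* and *Tnp2* were not in the rows used. The 9 postmeiotic genes within the brightest 100 had a median difference of 0.00 log2 units between *MxD* and the mean of the fertile genotypes, from -0.10 to 0.11, with 4 lower in *MxD* and 0 called in any of the 3 contrasts. The 33 at ranks 101 to 350 had a median of -0.13, with 28 lower in *MxD*. The median was -0.23 for the 27 genes at ranks 351 to 700, -0.22 for 52 genes at ranks 701 to 1400, -0.26 for 71 genes at ranks 1401 to 2800 and -0.33 for 77 genes at ranks 2801 to 7000.

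Among all 260 postmeiotic genes below rank 100 the median was -0.24, and 238 had a lower mean in *MxD*. Of these, 38, 90 and 105 were called lower than in *DxM*, *DxD* and *MxM*, and 1, 11 and 10 were called higher. Called lower were thus 14.6%, 34.6% and 40.4% of these genes, compared with 3.5%, 15.1% and 17.3% of all genes. Called higher were 0.385%, 4.23% and 3.85%, compared with 3%, 15.9% and 13% of all genes. The meiotic genes, the class given to *Tnp1*, also had medians that were lower among dimmer genes. Their median was 0.05 for 9 genes at ranks 1 to 100, *Tnp1* among them, -0.01 for 39 genes at ranks 101 to 350 and -0.17 for 85 genes at ranks 2801 to 7000, and over all 315 below rank 100 it was -0.06. The differences of *Prm1*, *Tnp1* and *Tnp2* (0.04, -0.03 and -0.02) lay within the range of the 9 bright postmeiotic genes (-0.10 to 0.11). *Prm1* and *Tnp2* also lay within that of the 9 bright meiotic genes (-0.12 to 0.09), which holds *Tnp1* by construction. The 260 dimmer postmeiotic genes ranged more widely (-0.81 to 0.51), and that range also held the 3 differences. Of those 260 genes, 238 had a lower mean in *MxD*, as did *Tnp1* and *Tnp2* but not *Prm1*. The gradient with brightness was not tested, and it rests on 9 genes of each class at the bright end.

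**Figure D4:**
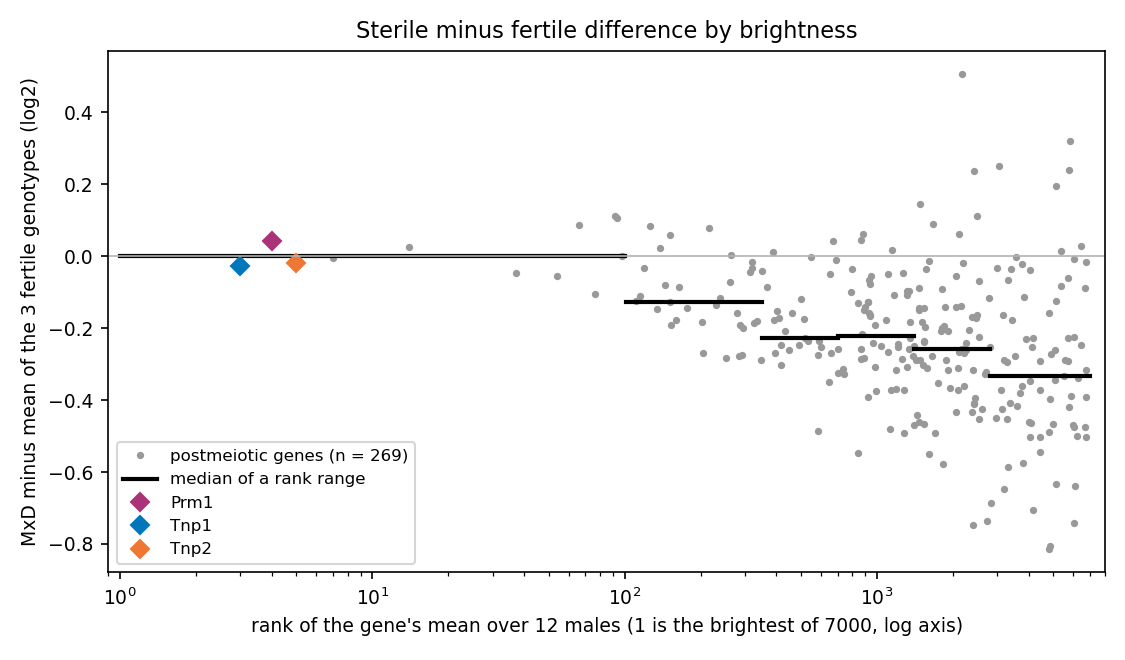
Difference between sterile *MxD* and the mean of the 3 fertile genotypes (log2, vertical axis) against the rank of a gene's mean over 12 males (log axis, rank 1 the brightest). Grey points are the 269 postmeiotic genes, black lines their medians in each range of ranks, and diamonds *Prm1*, *Tnp1* and *Tnp2*; the line is at 0.00 for ranks 1 to 100 and at -0.33 for ranks 2801 to 7000.

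Of the genes of late spermatids chosen to set beside the family, 1 of 46 could be matched to a gene ID, and none of the genes for spermatid chromatin or for control of stored messages. This was *Cylc1*, which encodes a basic protein of the sperm head skeleton and lies on the X chromosome. Among genes tied to sterility by the study, most X-linked ones were higher in *MxD*, whereas most autosomal postmeiotic ones were lower. *Cylc1* is thus no like comparator for *Tnp1*, which lies on chromosome 1. The log2 level of *Cylc1* was 8.62 ± 0.29 in *MxD*, compared with 7.92 ± 0.10 in *DxM*, 8.08 ± 0.15 in *DxD* and 8.01 ± 0.16 in *MxM* (SD, n = 3 each). It rose in *MxD* by 0.70 against *DxM* (limma adjusted p = 0.0132), by 0.54 against *DxD* (0.0123) and by 0.61 against *MxM* (0.00726), but the study had picked *Cylc1* on these samples, so this is not independent evidence of a direction. It lay at ranks 2382 to 3210 in *MxD* and 3382 to 3954 in fertile males, far from the steps at the top. The call against *DxM* was lost without *DxM* replicate 2, *DxM* replicate 3 or *MxD* replicate 3 (adjusted p = 0.0515, 0.0601 and 0.0592), and that against *DxD* without *DxD* replicate 2 (0.0537).

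A single marker of another cell type could be matched, *Cyp17a1*, a steroid-making enzyme of Leydig cells. Its log2 level was 11.23 ± 0.06 in *MxD*, compared with 10.56 ± 0.14 in *DxM*, 10.14 ± 0.41 in *DxD* and 9.97 ± 0.63 in *MxM* (SD, n = 3 each). The *MxD* mean was 0.67 above *DxM* (limma adjusted p = 0.175), 1.09 above *DxD* (0.0103) and 1.26 above *MxM* (0.00526). Both calls were lost without the replicate 1 males (adjusted p = 0.0969 and 0.0614), and the difference from *DxM* passed with both genotypes fitted alone (limma adjusted p = 0.00712) or without *MxM* replicate 3 (0.0298). It was also among the genes picked by the study on these samples. That pick held genes the study classed as postmeiotic and higher in sterile males, or as mitotic and lower. The study's class for *Cyp17a1* thus differs from the Leydig cell label used here. The higher *Cyp17a1* level in *MxD* stood beside values of *Prm1*, *Tnp1* and *Tnp2* that were not called in any of these contrasts, and its part in those values was not tested.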

How the data were processed

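Per the labels and the study's methods, total RNA of whole testis was hybridised to Affymetrix arrays, 1 per male. The authors used PLIER with BRAINARRAY chip definitions to obtain 1 value for each Ensembl gene, kept genes detected in all 12 males, quantile normalized them and deposited log2 values for 7000 genes. The methods name version 11 of the BRAINARRAY files and an annotation from Ensembl 52 on NCBI build 37; the PLIER version is not given in the sources used here. Read depth does not apply, and 3 males per genotype limit the precision.

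The deposited log2 values were used unchanged. A limma fit (version 3.58.1, R 4.3.3) with 1 coefficient per genotype over 12 males gave each contrast, two-sided, with Benjamini-Hochberg adjustment over 7000 genes, called at adjusted p under 0.05. The fit was tested on simulated data with independent noise. That simulation had no fixed rank values, so it does not show how the fit behaves at the top of the array. Intervals are 95% and unadjusted. Correlations were tested with 100000 permutations (scipy 1.17.1). The names of the family came with its listed gene IDs, and the other gene names came from the study's annotation. Genes were named by the rule of always giving the family, then members of related lists and markers, then the 3 most correlated named genes. The members and lists were chosen with earlier results of these data known, and *Prm2* is not reported.

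Alternatives included t-tests with equal and with unequal variances, both with the adjustment above. The study itself called sterility differences by Student's t-tests at unadjusted p under 0.05. Further alternatives were fits of 2 genotypes alone, a replicate block, a trended and robust prior, array weights and leaving out the dimmest 25% of genes. The last were ranks in place of values, an unadjusted threshold, and leaving out males. Replicate numbers in the labels were checked by correlating deviations from genotype means: same-numbered *MxD* and fertile males had r from 0.15 to 0.76, and *DxD* and *DxM* males from 0.16, so the numbers count as pairing those contrasts. *MxM* with *DxD* or *DxM* reached down to 0.07 and -0.05. The contrasts given are from the fit without the block, and the blocked share of calls stands beside them where it differs by over 1.5 times. Their intervals, fold limits and smallest differences to be called therefore do not use this pairing. The meaning of the number is not given. No 2 arrays of a genotype were identical throughout. The closest were *DxD* replicates 2 and 3, with 61 genes of equal value and a median absolute difference of 0.0495 log2 units. Other pairs within a genotype had 4 to 30 such genes and median differences of 0.111 to 0.238.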

Additional observations from a re-analysis of the deposited data

How the results depend on the processing

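Over 21 results for *Prm1*, *Tnp1* and *Tnp2* and 453 values under alternatives, 0 were called after adjustment. The lowest adjusted p was 0.0786 (*Prm1*, *DxM* against *DxD*, array weights), and 0.134 among the *MxD* contrasts. The unadjusted limma threshold called none in the fit as reported, but 6 alternative values had an unadjusted p below 0.05. The replicate block changed no call of the family. *Prm1* in *DxM* against *MxM* turned from 0.03 to -0.0297 without all replicate 1 males. Leaving out single males, differences that changed sign ranged from -0.0360 to 0.110 for *Prm1* in *DxM* against *MxM*, from -0.0642 to 0.0148 for *Prm1* in *MxD* against *DxD*, from -0.0309 to 0.00808 for *Tnp1* in *DxM* against *MxM*, from -0.0258 to 0.00391 for *Tnp2* in *DxD* against *MxM*, from -0.00391 to 0.0258 for *Tnp2* in *DxM* against *DxD*, and from -0.0207 to 0.00782 for *Tnp2* in *MxD* against *DxD*. The cause was not tested. By alternatives chosen after seeing the data, the median of the bright postmeiotic genes was -0.0511 over the brightest 200, -0.0259 with brightness from *MxM* alone and from -0.0164 to 0.0390 without single males. The methods' t-tests called none of the *Cylc1* differences after adjustment, and of the *Cyp17a1* differences that from *DxD* with equal variances alone.

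Of all genes, 455 were called in *MxD* against *DxM*, which became 0 with the t-test of unequal variances, 9 with equal variances, 1201 with the replicate block, 780 with array weights, 1528 unadjusted, 272 without replicate 1 males, 217, 254 and 206 without *DxM* replicates 1, 2 and 3, and 172 without *MxD* replicate 3. The 2170 for *MxD* against *DxD* became 654 with unequal variances. The 2122 for *MxD* against *MxM* became 3 and 420 with the t-tests, and 1048 with both genotypes fitted alone. *DxM* against *DxD* went from 844 to 170 with unequal variances, 1584 with the block, 2268 with array weights, 1785 unadjusted, 520 without replicate 1 males, 448 and 491 without *DxD* replicates 2 and 3, and 539 and 548 without *DxM* replicates 1 and 2. *DxM* against *MxM* went from 1181 to 4 and 179 with the t-tests, 533 fitted alone, 1918 with the block, 2068 unadjusted, and 724 and 764 without *DxM* replicates 1 and 3. *DxD* against *MxM* went from 2230 to 468 and 1377 with the t-tests, and the interaction from 1478 to 2399 with the block and 2358 unadjusted.

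Counts over the related gene lists and their alternatives were not run, because the lists could not be matched to gene IDs, and the tissue label could not be checked against markers. With 3 males per genotype and fixed steps at the top, the smallest difference that would have been called was 0.158 to 0.309 log2 units over the pairwise contrasts and 0.241 to 0.359 for the interaction, depending on the gene.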
